A study of Mus musculus with 2 samples.

Results

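The unfolded protein response and the integrated stress response were described here through 42 genes in RNA-seq of mouse muscle stem cells, which lie beside the muscle fibre, express Pax7 and rebuild fibres after injury. The genes were taken as a list of symbols, matched by Entrez gene ID through RefSeq, and all 42 were present among the 24532 gene IDs of the deposited table. They were divided into a PERK-ATF4 group of 23 genes, an IRE1-XBP1 group of 6 and an ATF6 group of 13. One library came from wild-type cells (WT) and one from double-knockout cells (dKO), both of male C57BL/6 mice. The dKO genotype combines Pax7-CreER, which expresses a tamoxifen-inducible Cre in Pax7-positive cells, Esr2–/–, in which estrogen receptor beta is lost, and a Cre-deletable allele of a further gene. No allele is given for the WT group, and the tamoxifen protocol (20 mg/mL by mouth on 5 days from 3 months of age) stands with both samples. Cells were sorted fresh as CD31-, CD45- and Sca1-negative and Vcam1-positive, and how many animals stand behind each library is not given. The sample titles carry the mark 6M.

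Folding of secreted and membrane proteins in the endoplasmic reticulum (ER) is watched by the sensors PERK, IRE1 and ATF6. PERK phosphorylates the translation factor eIF2, as do the kinases HRI, PKR and GCN2 under other stresses, which lowers protein synthesis in general and favours translation of ATF4, a factor for amino acid supply and stress genes. IRE1 removes a short segment from Xbp1 RNA so that an active factor is made, and ATF6 is cut in the Golgi to release a factor for ER chaperone genes. In quiescent muscle stem cells, eIF2 phosphorylation through PERK is known to restrain translation. Only RNA was measured here, so neither phosphorylation, cleavage nor protein level can be read from these values.

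The libraries held 36636680 (WT) and 43699831 (dKO) assigned reads, and with 1 library per group no difference below has a replicate check. The share of reads in the 42 stress response genes was 0.968% in WT and 1.34% in dKO. Esr2 had 71 and 45 reads, and since the labels do not say which part was deleted, these counts check nothing about the genotype. The 10 muscle stem cell markers examined ran from 134 CPM (Cxcr4, dKO) to 4872 CPM (Sdc4, dKO), with 5 higher and 5 lower in dKO, CPM being the usual depth-normalised count, here after the libraries were scaled by TMM, which takes most genes as equal. Pax7, which defines these cells, was 1.77-fold lower in dKO (558 and 315 CPM). All 28 endothelial, immune and fibro-adipogenic markers examined were lower in dKO. Their summed levels went from 589 to 264 CPM (endothelial, 10 genes), from 240 to 74.9 CPM (immune, 10 genes) and from 1747 to 872 CPM (progenitor, 8 genes). None of these 28 was at 0 in either library. All 6 mature myofibre markers examined were also lower in dKO, Actn3 hardly so (346 and 344 CPM). Their summed level was 957 CPM in WT and 797 CPM in dKO. Of the antigens used in the sort, Pecam1 (CD31) had 119 CPM in WT and 41.8 CPM in dKO, Ptprc (CD45) 5.00 and 0.425 CPM, and Ly6a (Sca1) 57.9 and 9.65 CPM. Vcam1, the antigen sorted for, had 595 and 1059 CPM. Of 4 plasma cell markers, genes of a cell type rich in ER, Tnfrsf17 was at 0 in both libraries. Jchain had 3 reads in WT and 15 in dKO (5.00-fold higher, 1.41 to 26.9), and Mzb1 had 4 and 20 (5.00-fold higher, 1.67 to 20.1). Their sum of 7.77 CPM in WT and 7.82 CPM in dKO was nearly all Cd79a, which B cells also express (7.60 and 6.95 CPM). Fewer cells of a type and less RNA per cell cannot be told apart in these samples, and the part of other cell types in the results below was not tested.

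Promoter sequence is shown first for the genes whose DNA holds the known elements of these pathways. The genes were listed for these pathways, so the shares of such elements below describe the list and are no independent result. The windows came from RefSeq on GRCm38.p6, each from 250 bases before to 50 after an annotated start, and 37 of the 42 genes had one. Ppp1r15b, Slc7a5, Atf6, Hyou1 and Manf had none. The ER stress response element (ERSE: CCAAT and CCACG with 9 bases between them, read on both strands) was found in 6 of these 37 genes, or 16.2%, against 0.137% of all 27025 genes with a window. All 6 belong to the ATF6 group: Hspa5, Hsp90b1, Calr, Canx, Pdia6 and Creld2. Their elements are printed in the direction of the gene, with the half-sites in capitals, and CGTGG with ATTGG marks a match on the opposite strand.
Hspa5 element: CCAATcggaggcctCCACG
Hsp90b1 distal element: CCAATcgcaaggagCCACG
Hsp90b1 proximal element: CGTGGtgaggcacgATTGG
Calr element: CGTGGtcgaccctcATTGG
Canx element: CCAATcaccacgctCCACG
Pdia6 element: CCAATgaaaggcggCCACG
Creld2 element: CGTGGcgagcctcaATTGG
The Hspa5 element began 65 bases before the annotated start and the Calr element 162 bases before it, and Hsp90b1 held an element on each strand. The windows upstream of the start of Hspa5, Hsp90b1, Calr and Herpud1 are printed with every element found in them in capitals. These 4 genes were at least 1.3-fold higher in dKO. The windows of the other genes with an ERSE are not printed: Pdia6 was 1.41-fold, Canx 1.14-fold and Creld2 1.13-fold higher.
Hspa5 promoter (chr2:34771840-34772089, plus strand): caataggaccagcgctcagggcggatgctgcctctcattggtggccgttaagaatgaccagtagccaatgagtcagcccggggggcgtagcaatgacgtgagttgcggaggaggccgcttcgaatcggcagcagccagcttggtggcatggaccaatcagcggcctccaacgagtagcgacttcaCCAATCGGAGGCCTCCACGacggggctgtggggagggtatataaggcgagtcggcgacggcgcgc
Hsp90b1 promoter (chr10:86705445-86705694, minus strand): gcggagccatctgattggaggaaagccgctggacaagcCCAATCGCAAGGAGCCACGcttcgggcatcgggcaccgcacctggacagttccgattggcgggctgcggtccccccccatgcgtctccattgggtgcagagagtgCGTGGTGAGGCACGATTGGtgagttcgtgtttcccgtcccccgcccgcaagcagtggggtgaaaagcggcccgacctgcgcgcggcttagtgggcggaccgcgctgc
Calr promoter (chr8:84846932-84847181, minus strand): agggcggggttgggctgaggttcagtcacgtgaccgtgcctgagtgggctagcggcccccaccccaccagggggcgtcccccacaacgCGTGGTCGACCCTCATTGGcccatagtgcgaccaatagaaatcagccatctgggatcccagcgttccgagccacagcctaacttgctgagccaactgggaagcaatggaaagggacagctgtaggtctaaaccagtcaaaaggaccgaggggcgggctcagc
Herpud1 promoter (chr8:94386179-94386428, plus strand): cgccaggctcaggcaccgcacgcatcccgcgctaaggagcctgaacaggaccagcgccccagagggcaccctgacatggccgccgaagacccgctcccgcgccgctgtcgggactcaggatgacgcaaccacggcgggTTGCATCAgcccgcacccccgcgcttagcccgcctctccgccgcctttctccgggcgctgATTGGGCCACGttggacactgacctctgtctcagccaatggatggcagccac
The Herpud1 window held no ERSE, but had ERSE-II (ATTGG and CCACG with 1 base between them), an element added to the search after the other results were seen, and found in 0.0365% of 32851 windows. It also held the ATF4 composite element, TGATGNAA searched on both strands, at which ATF4 is known to bind with C/EBP factors.

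The ATF4 composite element was present in 5 of the 37 genes (13.5%, against 4.51% of all genes), namely Chac1, Trib3, Asns, Vldlr and Herpud1. Chac1 is printed as the member of this group with the highest log2 ratio.
Chac1 promoter (chr2:119350992-119351241, plus strand): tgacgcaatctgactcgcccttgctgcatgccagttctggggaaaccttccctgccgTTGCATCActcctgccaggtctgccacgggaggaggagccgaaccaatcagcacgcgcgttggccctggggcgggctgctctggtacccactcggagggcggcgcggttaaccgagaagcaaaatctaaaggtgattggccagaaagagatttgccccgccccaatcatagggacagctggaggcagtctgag
TGACGTGG, known as a site of XBP1 and ATF6, was in 0 of the 37 genes and in 0.676% of all windows. A match is a string of letters in a short window and not a proven site, and nothing about a factor follows from its absence.

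Most of the stress response genes were higher in dKO. Of the 42 genes, 35 were above 0 on the log2 ratio of dKO to WT (computed on CPM + 1) and 7 were below. The median was 0.49 (order-statistic interval 0.26 to 0.57), against −0.02 over all 14885 genes with at least 10 reads in the higher library. All 42 genes passed that minimum. The interval of the median describes the spread between the listed genes and not that between animals. By a 1.5-fold rule on this scale, 14 genes were higher and 0 lower, where the rule called 8.98% of all measured genes higher and 13.1% lower. By a 2-fold rule, 5 were higher (Cebpb, Chac1, Mthfd2, Slc7a5 and Hspa5) and 0 lower, against 1.92% higher and 4.30% lower among all genes. Cebpb counts under both rules, but its direction is uncertain, with a log2 ratio of −0.44 by its table row with the most reads. Of all genes 2-fold apart, 69.1% were lower in dKO, and the share was 88.9% when libraries were scaled by their totals alone. That scaling moved the median of all genes by −0.22 and left 8 of the 42 genes 1.5-fold higher and 2 lower, against 3.88% higher and 21.7% lower among all genes.

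**Figure D1:**
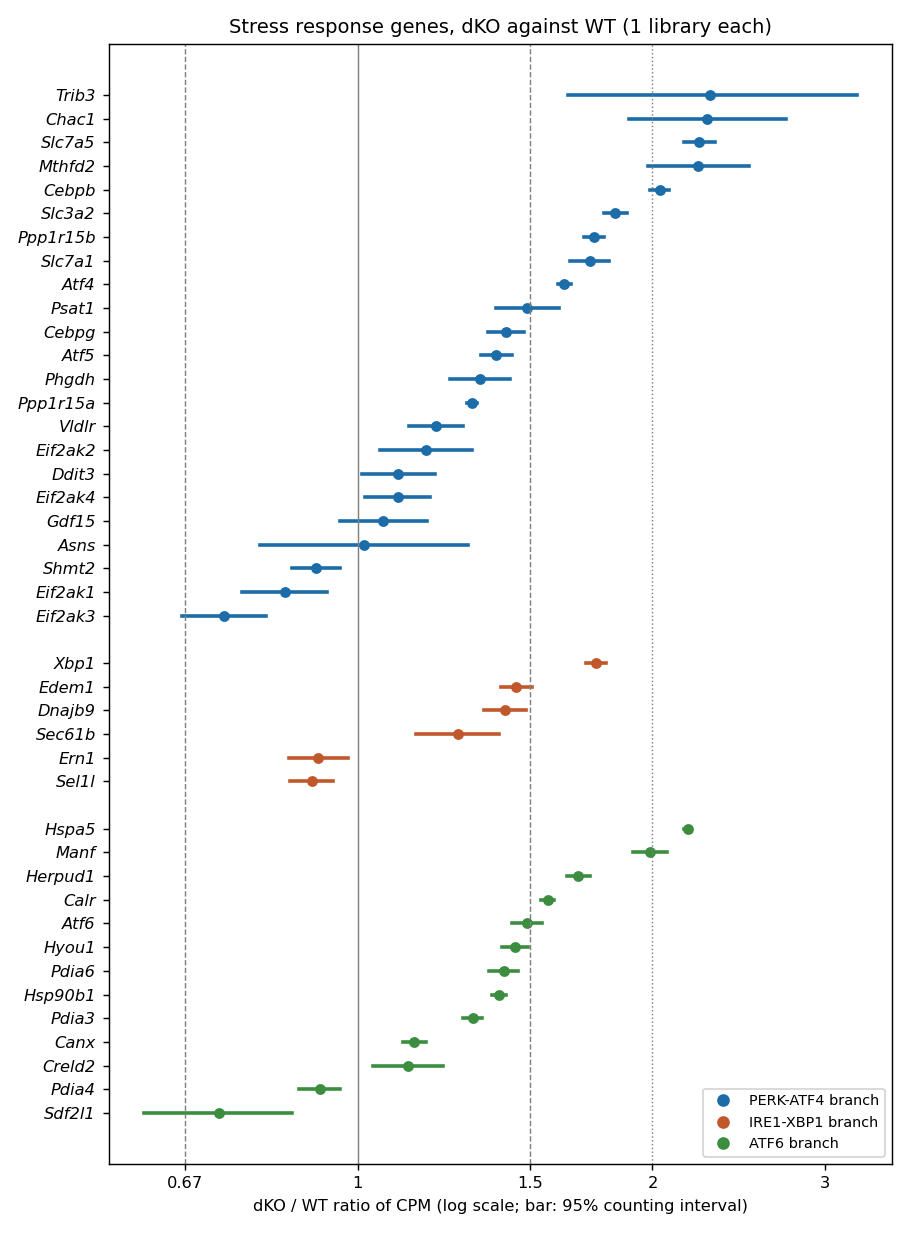
Ratio of dKO to WT CPM on a log axis for each of the 42 genes, grouped by branch, with bars for the exact 95% interval from read counting in 1 library per group. Dashed lines mark 1.5-fold in either direction and the dotted line 2-fold; Trib3 has the widest bar, and Hspa5, at 2.17, one of the narrowest.

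Abundance moved with these values. The genes are more abundant than most (median mean level 93.3 CPM, against 15.6 CPM over all measured genes), and abundant genes as a whole were higher in dKO. Among all 1955 genes with a mean level of 100 to 1000 CPM, the median log2 ratio was 0.26, 73.5% were above 0 and 21.6% were 1.5-fold higher. In the same range, all 18 stress genes were above 0, with a median of 0.61, and 9 were 1.5-fold higher. Between 10 and 100 CPM, the 18 stress genes had a median of 0.15, against 0.01 over 6599 genes, and 2 of them were 1.5-fold higher (11.1%, against 7.82%). Once the log2 ratio had been corrected for abundance, length of the transcript and GC content by a cubic fit, called trend removal below, the median of the 42 genes was 0.24, with 30 above 0 and 7 at least 1.5-fold higher. Over all 14192 genes in that fit, 7179 were above 0 and 8.72% were 1.5-fold higher. The part of this trend in the differences was not tested.

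**Figure D2:**
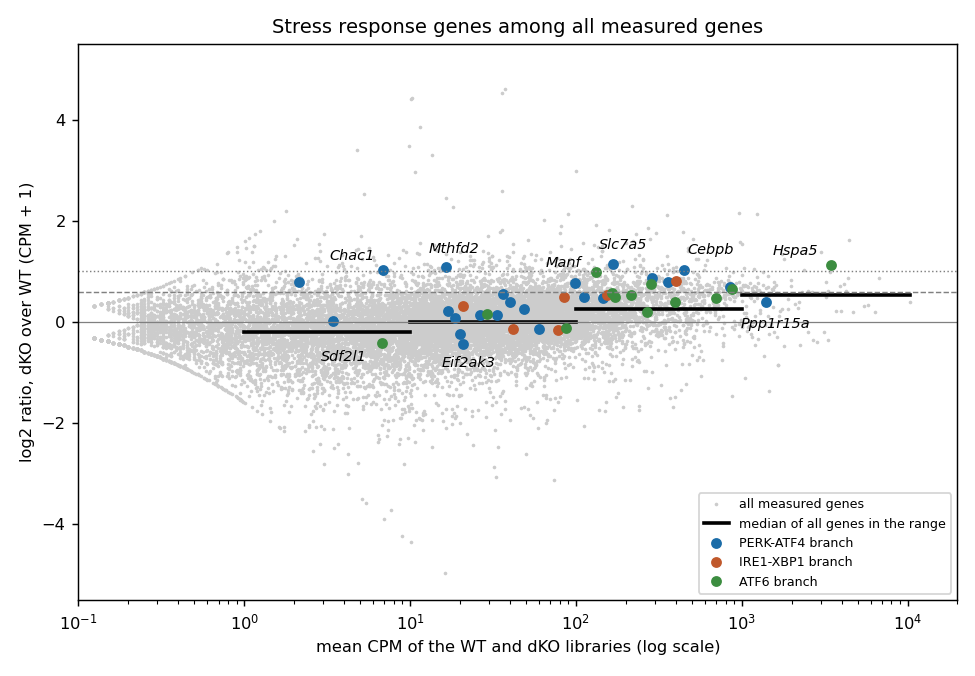
Log2 ratio of dKO to WT (CPM + 1) against the mean CPM of both libraries (log axis) for all measured genes (grey; 5 lie outside the axes) and the 42 stress genes (coloured by branch). Black bars are medians of all genes in each range of abundance, which go up from −0.20 at 1 to 10 CPM to 0.54 above 1000 CPM.

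The 4 eIF2 kinases were close in level or lower in dKO. Eif2ak3, which encodes PERK, had 968 reads in WT and 708 in dKO (24.2 and 17.7 CPM) and was 1.37-fold lower (95% interval from read counting 1.24 to 1.51). Eif2ak1, the gene of the heme-regulated kinase HRI, had 872 and 735 reads (21.8 and 18.4 CPM) and was 1.19-fold lower (1.07 to 1.31). Eif2ak2 (PKR, the double-stranded RNA sensor) and Eif2ak4 (GCN2, the sensor of uncharged tRNA) were 1.18-fold (1.06 to 1.31) and 1.10-fold higher (1.02 to 1.19), with log2 ratios of 0.22 and 0.13 that turned to −0.02 and −0.11 under library totals. Per kilobase of transcript, these genes ran from 3.61 RPKM (Eif2ak2) to 8.48 RPKM (Eif2ak1) in WT, where Atf4 was at 373 RPKM. Eif2ak4 had the most reads, 1282 in WT and 1410 in dKO (32.0 and 35.2 CPM). RPKM here is CPM divided by transcript length in kilobases, summed over a gene's rows.

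The transcription factor genes of this branch were abundant and mostly higher. Atf4, the effector of eIF2 phosphorylation, had 25823 reads in WT and 41987 in dKO (645 and 1049 CPM), a 1.63-fold difference (1.60 to 1.65). Atf5, a related factor that is also controlled at translation, was 1.39-fold higher (1.34 to 1.44), with 122 CPM in WT and 169 CPM in dKO. Cebpg, the C/EBP partner of ATF4, was 1.42-fold higher (1.36 to 1.48). Ddit3, which encodes the pro-apoptotic factor CHOP, was near equal, at 25.3 and 27.9 CPM (1.10-fold, 1.01 to 1.20), and its log2 ratio of 0.13 was −0.11 under library totals. With the trend removed, the log2 ratios of Atf4, Atf5 and Cebpg were 0.21, 0.12 and 0.33. Atf4, at 0.70 as reported, was under the 1.5-fold rule there and under library totals (0.45).

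Cebpb, a C/EBP factor of stress and inflammation, depended on how its reads are gathered. Its sum was 11849 reads in WT and 24110 in dKO (296 and 602 CPM), or 2.03-fold higher (1.99 to 2.08). The table holds 3 rows of the same length, 1518 bases, with 1, 1 and 11847 reads in WT and 7642, 7651 and 8817 in dKO. By the row with the most reads alone, the log2 ratio was −0.44, and by the sum it was 0.40 after trend removal, under the 1.5-fold rule. No source used here says how reads were divided between these rows, so the direction of Cebpb is uncertain.

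Both eIF2 phosphatase subunits, which reverse the kinase step, were higher. Ppp1r15b (CReP, the constitutive subunit) had 10477 and 18268 reads (262 and 456 CPM) and was 1.74-fold higher (1.70 to 1.79). Ppp1r15a (GADD34, the stress-induced subunit) was the most abundant gene of the PERK-ATF4 group per kilobase, with 518 RPKM in WT and 677 RPKM in dKO. It had 48307 and 63229 reads (1208 and 1580 CPM) and was 1.31-fold higher (1.29 to 1.32). Its log2 ratio of 0.39 became −0.02 with the trend removed, while that of Ppp1r15b went from 0.80 to 0.55. Ppp1r15b was under the 1.5-fold rule there and under library totals (0.55). The pseudokinase gene Trib3, a feedback inhibitor of ATF4 and CHOP, had 52 reads in WT and 119 in dKO (1.30 and 2.97 CPM), 2.29-fold higher (1.64 to 3.23), and its log2 ratio of 0.79 was 0.34 with a pseudocount of 5. Chac1, a glutathione-degrading enzyme induced by ATF4, had 169 and 384 reads (4.22 and 9.60 CPM) and was 2.27-fold higher (1.89 to 2.74). Trib3 and Chac1 were both scarce, at 1.45 and 6.11 RPKM in dKO.

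Genes of amino acid and one-carbon synthesis were uneven. Mthfd2, the mitochondrial folate enzyme, had 410 reads in WT and 913 in dKO (10.2 and 22.8 CPM) and was 2.23-fold higher (1.98 to 2.51). In the serine pathway, Psat1 was 1.49-fold higher (1.38 to 1.61) and Phgdh, the first enzyme, 1.33-fold higher (1.24 to 1.43). Shmt2, the mitochondrial enzyme that passes serine carbon to folate, was the most abundant of the 5 per kilobase (27.2 RPKM in WT), with 2508 and 2275 reads (62.7 and 56.8 CPM; 1.10-fold lower, 1.04 to 1.17). Its log2 ratio was −0.14 by the sum of its rows and 0.20 by the larger row. Asns, asparagine synthetase and a classical ATF4 target, had 136 and 138 reads, a ratio of 1.01 (0.795 to 1.29), and a log2 ratio of 0.02 that was −0.18 under library totals. Mthfd2 alone of the 5 passed the 1.5-fold rule.

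All 3 amino acid transporter genes were past 1.5-fold. Slc7a5, the LAT1 subunit that carries leucine and other large amino acids, had 4144 reads in WT and 9257 in dKO (104 and 231 CPM), 2.23-fold higher (2.15 to 2.32). Slc3a2, the 4F2 heavy chain that LAT1 pairs with, had 8171 and 14974 reads (204 and 374 CPM) and was 1.83-fold higher (1.78 to 1.88). Slc7a1, the arginine and lysine carrier CAT1, had 2901 and 5010 reads (72.5 and 125 CPM) and was 1.73-fold higher (1.65 to 1.81). With the trend removed, the log2 ratios of the 3 genes were 0.94, 0.51 and 0.80, which left Slc3a2 under the 1.5-fold rule. Under library totals alone, Slc7a1 had 0.53 and was no longer 1.5-fold apart.

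The 2 remaining members of the PERK-ATF4 group differed little. Vldlr, a lipoprotein receptor gene, had 1777 and 2137 reads (44.4 and 53.4 CPM; 1.20-fold, 1.13 to 1.28). Gdf15, a stress-induced hormone, had 729 and 775 reads in sum (18.2 and 19.4 CPM; 1.06-fold, 0.959 to 1.18). Its rows went in opposite directions, with 618 and 376 reads in the row of 1545 bases and 111 and 399 in the row of 1381 bases, so its log2 ratio by the larger row was −0.67.

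**Figure D3:**
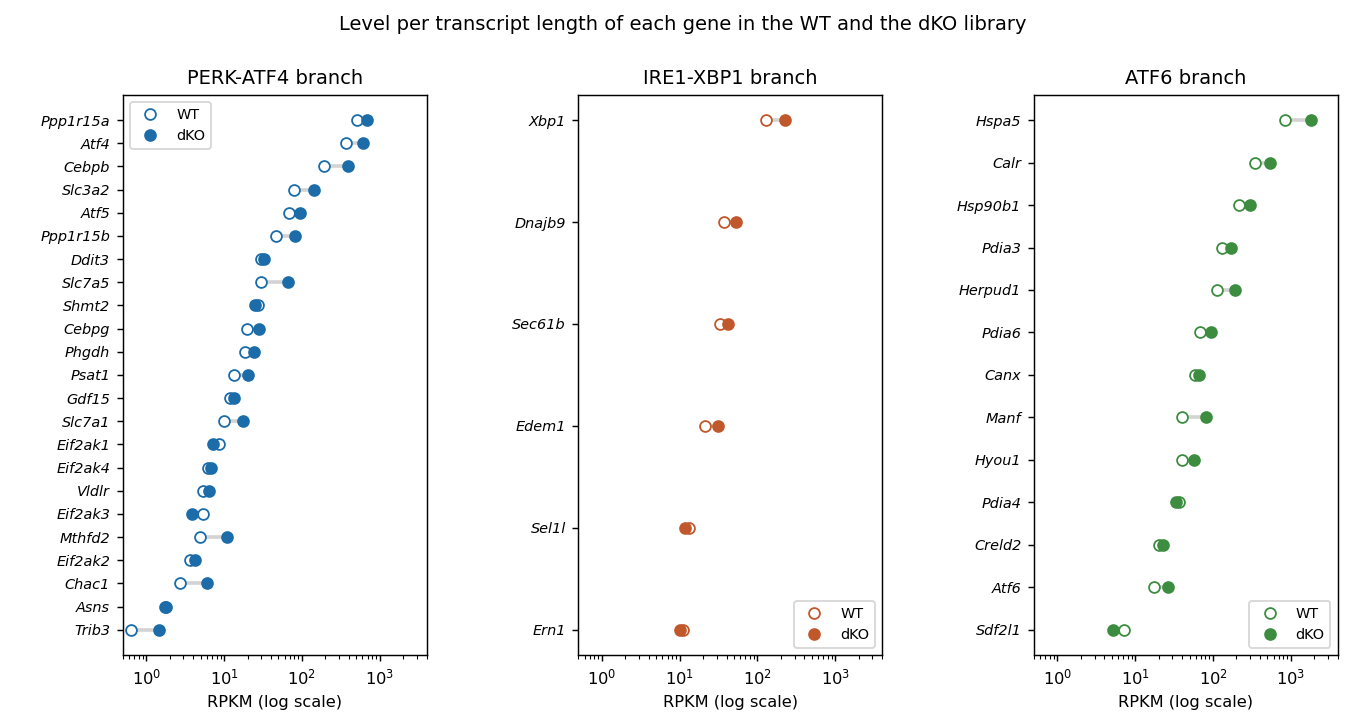
RPKM (log axis) of each gene in the WT library (open circles) and the dKO library (filled circles), ordered by WT level within each branch. Levels run from 0.634 RPKM (Trib3, WT) to 1828 RPKM (Hspa5, dKO).

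In the IRE1-XBP1 group, the sensor and its target RNA differed in direction. Ern1, which encodes IRE1, had 1747 reads in WT and 1594 in dKO, 1.10-fold lower (1.02 to 1.17). Xbp1, the RNA that IRE1 cuts, had 11625 and 20361 reads (291 and 509 CPM) and was 1.75-fold higher (1.71 to 1.79). Its targets were Edem1 and Sel1l of ER-associated degradation, the co-chaperone gene Dnajb9 (ERdj4) and the translocon gene Sec61b. Edem1 had 4996 and 7256 reads (125 and 181 CPM) and was 1.45-fold higher (1.40 to 1.51). Dnajb9, the most abundant target per kilobase, had 2811 and 3977 reads (70.3 and 99.4 CPM) and was 1.41-fold higher (1.35 to 1.48), and Sec61b was 1.27-fold higher (1.15 to 1.40). Sel1l was 1.11-fold lower (1.06 to 1.17), with 82.1 CPM in WT and 73.7 CPM in dKO. Xbp1 alone of the 6 passed 1.5-fold, and its log2 ratio of 0.81 was under that rule when scaled by totals (0.55) and after trend removal (0.39). The median of the group was 0.41.

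Xbp1 had 2 rows, of 2247 and 2221 bases, and their difference of 26 bases equals the length of the segment that IRE1 is known to remove. The longer row had 9643 reads in WT and 18178 in dKO, 1.88-fold higher (1.84 to 1.93). The shorter row had 1982 and 2183 reads, 1.10-fold higher (1.04 to 1.17). Its share of the gene's reads was 17.0% in WT (exact binomial interval 16.4 to 17.7) and 10.7% in dKO (10.3 to 11.2). The table does not name the rows, and apart from that short stretch a read could come from either. The shares therefore depend on the authors' rule for dividing reads, which no source used here states, and they are not a direct count of spliced RNA.

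**Figure D4:**
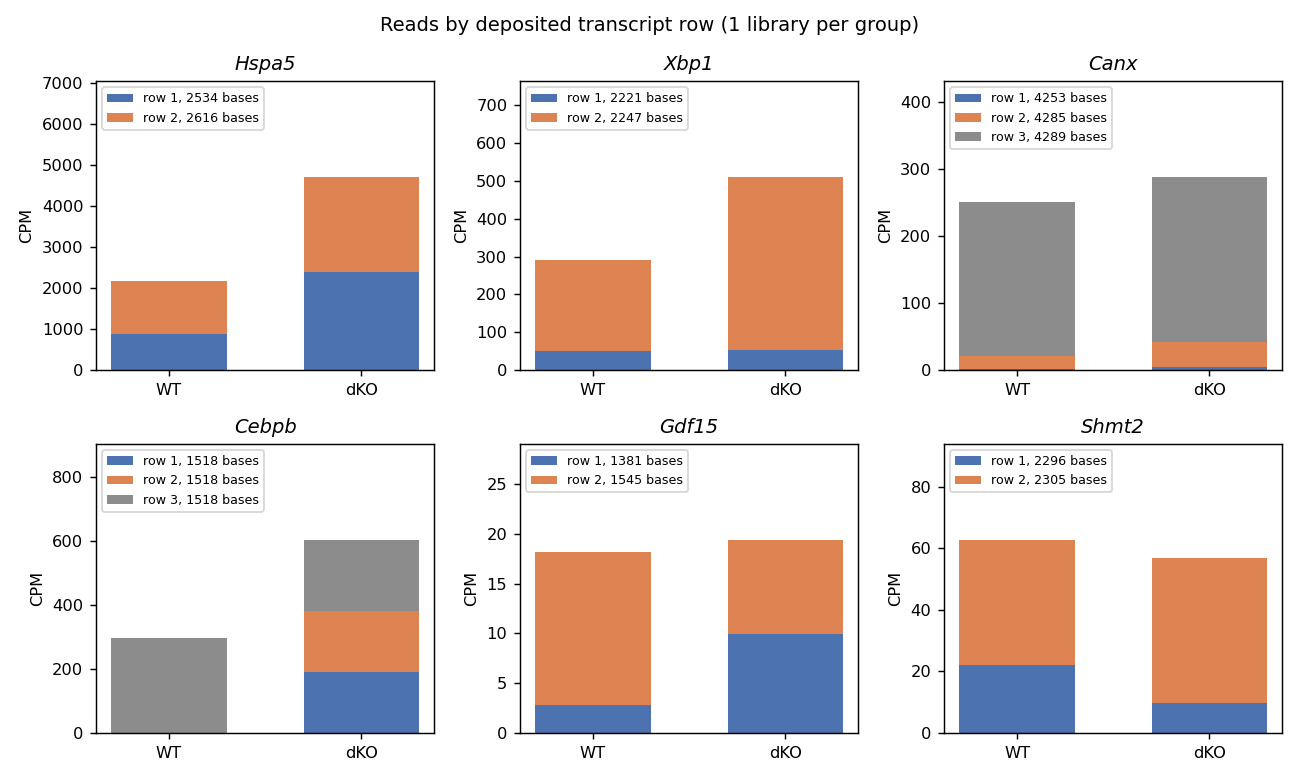
CPM (from 0) of 6 genes in WT and dKO, stacked by the deposited transcript rows of each gene, with the row length in the key. For Cebpb the reads sit in 1 row in WT and in 3 rows of equal length in dKO; for Xbp1 the row of 2221 bases changes little (49.5 and 54.5 CPM) while that of 2247 bases goes from 241 to 454 CPM.

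In the ATF6 group, the ER chaperone gene Hspa5 dominated. Hspa5 encodes BiP (Entrez ID 14828, chromosome 2, 34772090 to 34776529 on GRCm38), the main HSP70 chaperone of the ER and the brake on all 3 sensors. It had 86613 reads in WT and 188252 in dKO (2165 and 4704 CPM), a 2.17-fold difference (2.16 to 2.19). It made up 24.4% of the reads of the 42 genes in WT and 32.1% in dKO. Its row of 2534 bases was 2.74-fold and its row of 2616 bases 1.79-fold higher, so both rows went the same way, and by the larger row alone the log2 ratio was 0.82. As reported it was 1.12, and it was 0.87 under library totals and 0.82 after trend removal, both under the 2-fold rule. Of all 127 genes with a mean level of at least 1000 CPM, 40.2% were 1.5-fold higher, with a median of 0.54. Atf6 itself, the sensor and factor, had 5280 and 7868 reads (132 and 197 CPM) and was 1.49-fold higher (1.44 to 1.54).

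The other ER chaperone genes were higher by less. Hsp90b1 (GRP94, the HSP90 of the ER) had 23508 and 32797 reads and was 1.39-fold higher (1.37 to 1.42). Hyou1, a nucleotide exchange factor of BiP, was 1.45-fold higher (1.40 to 1.49). Sdf2l1, a BiP cofactor and the scarcest gene of the group per kilobase, went the other way, with 316 and 228 reads, 1.39-fold lower (1.17 to 1.65). Of the lectin chaperones that hold glycoproteins during folding, Calr (calreticulin) had 27120 and 42446 reads (678 and 1061 CPM) and was 1.56-fold higher (1.54 to 1.59). Its log2 ratio of 0.65 was 0.39 under library totals and 0.15 after trend removal, both under the 1.5-fold rule. Canx (calnexin) had 251 and 287 CPM, 1.14-fold higher (1.11 to 1.17), and its log2 ratio of 0.19 was −0.14 with the trend removed and also below 0 under library totals.

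The disulfide isomerase genes had no member past 1.5-fold. Pdia6 was 1.41-fold higher (1.36 to 1.46) and Pdia3, the partner of the lectin chaperones, had 13663 and 17922 reads (342 and 448 CPM) and was 1.31-fold higher (1.28 to 1.34). Pdia4 was 1.09-fold lower (1.04 to 1.15), with 91.6 CPM in WT and 83.8 CPM in dKO. With the trend removed, Pdia3 was at −0.05 and Hsp90b1 at −0.01.

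Manf, Herpud1 and Creld2 are further ATF6-responsive genes. Manf, a secreted factor kept in the ER by BiP, had 3560 reads in WT and 7080 in dKO (89.0 and 177 CPM) and was 1.99-fold higher (1.91 to 2.07). Herpud1, an ER membrane protein of ER-associated degradation, had 8468 and 14230 reads (212 and 356 CPM) and was 1.68-fold higher (1.64 to 1.73). Its log2 ratio of 0.75 was under the 1.5-fold rule when scaled by totals (0.49) and after trend removal (0.33). Creld2, an ER-resident protein, was 1.13-fold higher (1.04 to 1.22), with a log2 ratio of 0.17 that was −0.08 under library totals.

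The 6 genes with an ERSE had a median log2 ratio of 0.49, from 0.17 (Creld2) to 1.12 (Hspa5), and 2 of them passed 1.5-fold. The 4 ATF6-group genes with a window and no ERSE had a median of 0.13, from −0.41 (Sdf2l1) to 0.75 (Herpud1, which had ERSE-II). The ranges overlapped. Atf6, Hyou1 and Manf of the same group had no window and stand in neither set. Their log2 ratios were 0.57, 0.53 and 0.98, above both medians, so the 2 sets cannot be compared for the whole group. The 5 genes with the ATF4 composite element ran from 0.02 (Asns) to 1.02 (Chac1), and 3 of them passed 1.5-fold. Their median of 0.75 was the value of Herpud1, of the ATF6 group. The 4 of them in the PERK-ATF4 group had a median of 0.52, and 2 passed 1.5-fold. The 17 PERK-ATF4 genes with a window and without this element had a median of 0.40, and 5 passed 1.5-fold. Among all measured genes, 8.98% were 1.5-fold higher.

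By branch, the medians lay close together: 0.47 for PERK-ATF4 (interval 0.13 to 0.79), 0.41 for IRE1-XBP1 (−0.15 to 0.81, the whole range of its 6 genes) and 0.49 for ATF6 (0.17 to 0.75). At least 1.5-fold higher were 9 of 23, 1 of 6 and 4 of 13, against 8.98% of all measured genes. With the trend removed, the medians were 0.33 (0.12 to 0.51), 0.17 (−0.16 to 0.39) and 0.13 (−0.14 to 0.47). The intervals of IRE1-XBP1 and ATF6 spanned 0 there, and 8 of 13 ATF6 genes were above 0, against 11 as reported. The 1.5-fold counts there were 5, 0 and 2, against 8.72% of all genes in that fit. With 6 genes, the IRE1-XBP1 counts say little beside these shares. Of the 6 sensor genes, those of PERK, HRI and IRE1 were lower, and those of ATF6, PKR and GCN2 were higher, the last 2 within 1.2-fold and below 0 under library totals. No difference between branches was tested, since each gene has 1 value per genotype.

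**Figure D5:**
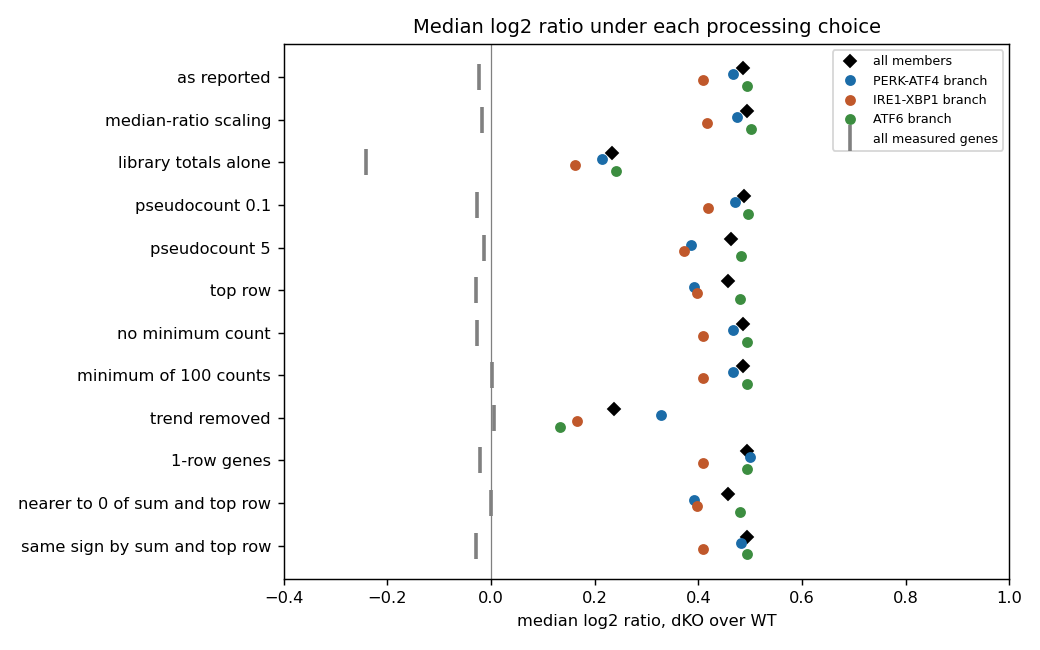
Median log2 ratio of all members and of each branch under each processing choice, with grey bars for all measured genes; the setting of genes with 1 row holds 26 of the 42. Every plotted branch median lies above 0 and to the right of the grey bar, and the gap narrows most when the trend is removed (members 0.24, all genes 0.01).

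Other genes of these pathways did not move as one. Of 16 further genes of eIF2, its exchange factor eIF2B and their regulators, 1 was 1.5-fold higher and 1 lower, with a median of −0.07. Eif2s2, the beta subunit of eIF2, was 2.08-fold higher (2.01 to 2.15), Eif2b4, an eIF2B subunit, 1.58-fold lower (1.39 to 1.80) and the adaptor gene Nck2 had a log2 ratio of 0.54. Of 17 further ATF4 targets, 3 (Sesn2, Cth and Eif4ebp1) were at least 1.5-fold higher and 2 (Aldh1l2 and Ddit4) lower, and their median was −0.08. The same rule called 8.98% of all measured genes higher and 13.1% lower, and counts this small say little beside these shares. Sesn2, a stress-induced sestrin, had 830 and 2507 reads (3.02-fold higher, 2.79 to 3.27). Cth, a cysteine synthesis enzyme, had 20 and 102 (5.10-fold higher, 3.14 to 8.70). Aldh1l2, a mitochondrial folate enzyme like Mthfd2, went the other way with 101 and 33 reads (−0.95; 3.06-fold lower, 2.05 to 4.68). Atf3, an abundant stress factor downstream of ATF4, had 415 CPM in WT and 391 CPM in dKO.

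ER import genes were higher by small amounts. Of 14 genes of the translocon, signal peptide processing and signal recognition, 13 were above 0, 1 passed 1.5-fold and the median was 0.38. With the trend removed, 10 of the 14 were above 0 and their median was 0.12 (interval −0.10 to 0.31). As reported, 7084 of all 14885 measured genes were above 0 and 8.98% were 1.5-fold higher. Sec61g, the translocon gamma subunit, was 1.74-fold higher (1.63 to 1.86), and Serp1 and Spcs3 had log2 ratios of 0.57 and 0.52. Of 14 other folding enzymes and co-chaperones, 10 were above 0 and 1, the PERK inhibitor gene Dnajc3 (P58IPK), passed 1.5-fold (1.60-fold, 1.56 to 1.63), with a median of 0.25. Hspa13 and Txndc11 followed with 0.54 and 0.40. Among 15 genes of ER-associated degradation, 14 were measured, with a median of 0.22. Under library totals this median was −0.03. Ube2j1, an ER ubiquitin-conjugating enzyme, was 1.98-fold higher (1.92 to 2.04) and Syvn1, the ligase HRD1, 1.68-fold higher (1.61 to 1.76), while Ubxn4 had 0.54. Derl3 had 0 and 3 reads and was not measured. Of 6 genes of ATF6 processing and related factors, Creb3l1 was 1.61-fold higher (1.51 to 1.71), Mbtps2, a protease that cuts ATF6, was 1.42-fold lower (1.23 to 1.65), and Creb3 had 0.19. The median of these 6 was 0.05, and it was −0.20 when scaled by totals and −0.09 after trend removal.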

How the data were processed

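RNA-seq of 1 WT and 1 dKO library of sorted muscle stem cells was used, each placed in its group by its genotype label. The Cre-deletable gene of the dKO genotype is not reported here. The deposited values are raw read counts in whole numbers, per the file headers, each row a transcript with its gene ID and length. The submitters' processing notes name mm10, edgeR, bedtools and TopHat2 2.0.9, with no role or order. No source used here states the counting rule, the annotation or whether strand was used, so overlapping or antisense genes and near-identical copies cannot be told apart. The table has 36780 rows, and 24462 of 24532 gene IDs matched a RefSeq symbol on GRCm38; 6494 IDs and 16 of the 42 genes have several rows.

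A gene's value was the sum of its rows. Library totals (36636680 and 43699831) were scaled with TMM in edgeR 4.0.16 (R 4.3.3), with factors of 1.09 (WT) and 0.916 (dKO). The log2 ratio used CPM + 1, and folds used CPM with no pseudocount and an exact conditional binomial 95% interval, which covers counting error only. Genes with at least 10 reads in the higher library were called measured, and 2-fold and 1.5-fold rules of size stood in for a test. Intervals of medians are order-statistic intervals over the genes of a list, and they do not cover spread between animals or libraries. Trend removal was an additive cubic fit over the 14192 measured genes (95.3%) with GC content from GENCODE M21. The steps were tested on simulated data.

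All 42 genes are accounted for. Those 1.5-fold apart and the most abundant gene of each role are given in full, and up to 3 genes with the largest log2 ratio and at least 50 reads are named per further list, plus Atf3, Derl3, Eif4ebp1 and Ddit4, which were chosen after their values were seen. Members, branches and lists were chosen with earlier results of these data known. Alternatives were median-ratio scaling (DESeq2 1.42.0), library totals, pseudocounts of 0.1 and 5, the row with the most reads, no minimum or 100 reads, trend removal and genes with 1 row. Chosen after seeing the data were the nearer to 0 of sum and row, and genes with the same sign by both.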

Additional observations from a re-analysis of the deposited data

How the results depend on the processing

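The number of genes 2-fold higher, 5 as reported, was 0 under library totals alone and 3 each with a pseudocount of 5, by the row with the most reads, with the trend removed, among the 26 genes with 1 row, and by the nearer to 0 of sum and row. Of all measured genes, 1.92% were 2-fold higher as reported, 0.873% under library totals and 1.03% with a pseudocount of 5. That share was 3.06% by the row with the most reads and 2.04% with the trend removed. It was 1.91% among genes with 1 row and 1.77% by the nearer to 0 of sum and row. The number 1.5-fold higher, 14 as reported, was 8 under library totals, 7 with the trend removed and 8 among genes with 1 row. The shares of all genes in these settings were 3.88%, 8.72% and 8.92%, against 8.98% as reported. The number 1.5-fold lower, 0 as reported, was 2 under library totals (Eif2ak3, −0.67, and Sdf2l1, −0.63) and 1 by the row with the most reads (Gdf15). Of all measured genes, 13.1% were 1.5-fold lower as reported, 21.7% under library totals and 15.2% by the row with the most reads. The median of all 42 genes, 0.49 as reported, was 0.23 under library totals. With the trend removed it was 0.24, and the ATF6 median was 0.13. Relative to the median of all genes, the 42 genes stood 0.51 higher as reported, 0.47 when scaled by totals and 0.23 after trend removal. The eIF2 and eIF2B list was −0.31 under library totals, and the ER import list had 0.13 there and 0.12 after trend removal. Cebpb was −0.44 by the row with the most reads. By definition, library totals leave out the TMM factors of 1.09 (WT) and 0.916 (dKO). The row with the most reads likewise leaves out the other rows of Cebpb, and the setting with 1 row holds fewer genes. What else lies behind these shifts was not tested.

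Under the alternatives run, 24 genes kept a log2 ratio above 0, 6 kept one below 0 (Eif2ak1, Eif2ak3, Ern1, Sel1l, Sdf2l1 and Pdia4) and 12 turned sign in at least 1. Chac1, Mthfd2, Slc7a5, Hspa5 and Manf were at least 1.5-fold higher in every alternative run on them. Genes that kept their sign or passed this rule in every alternative were not counted among all measured genes. Whether such stability sets the stress response genes apart from others was therefore not tested. No paired analysis was possible because each group has 1 library. Read number limits Trib3, Asns and Chac1 most, and with 1 library per group no spread between animals is known.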

Other observations

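Outside the 42 genes, 14 measured genes had an ERSE in their RefSeq window. Their median log2 ratio was 0.09 (order-statistic interval −0.47 to 0.67), with 7 above 0, 3 at least 1.5-fold higher and 2 lower. The 321 other measured genes with the ATF4 composite element had a median of −0.09 (−0.16 to −0.02), with 28 at least 1.5-fold higher and 60 lower. For TGACGTGG, 119 other measured genes had a median of 0.06, with 14 higher and 17 lower. The median of all measured genes was −0.02, with 8.98% at least 1.5-fold higher and 13.1% lower.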
